A study of Saccharomyces cerevisiae with 15 samples.

Results

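The comparison described here sets 3 arrays of yeast cultures started with 1.5 g/L mannose against 3 arrays of cultures started with 0.75 g/L, across every gene on the array. These are 6 of the 15 arrays of the study, chosen by the concentration in their titles, and no measured value entered the choice. All 15 arrays measured total RNA of a Saccharomyces cerevisiae strain whose PMI40 gene was knocked out in the CEN.PK113-7A background. The strain grew in aerated batch culture on mineral medium with 15 g/L glucose, and RNA was sampled at 6 h. Mannose at the start was 0.75, 1, 1.5, 3 or 5 g/L, with 3 arrays for each level, so the cells at 1.5 g/L and those at 0.75 g/L shared the deletion, the glucose and the sampling time and differed in initial mannose. No parent strain was analysed here, so nothing below separates the deletion from the strain background.

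PMI40 encodes mannose-6-phosphate isomerase, the enzyme through which yeast makes mannose 6-phosphate from fructose 6-phosphate. A strain without it takes its mannose 6-phosphate from mannose in the medium, and turns it through SEC53 and PSA1 into GDP-mannose, the sugar donor for N-glycans, O-mannosylated proteins, GPI anchors and the mannoproteins of the cell wall. Separately, transcripts of ribosome assembly are known to be abundant in fast-growing yeast, while those of reserve carbohydrates and stress defence are known to be abundant in slow-growing or starved yeast.

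Values are signals on a linear scale, and a signal up to 13.5, is called background here, since 13 control probe sets (mouse and antisense) had their 95th percentile there. Median signals ran between 23.9 and 24.6 at 1.5 g/L and between 20.1 and 22.1 at 0.75 g/L. Signals correlated at 0.968 to 0.971 among the 1.5 g/L arrays, at 0.968 to 0.977 among the 0.75 g/L arrays and at 0.930 to 0.945 between them, with the correlation taken over probe sets, which are not independent of each other. The ratio of 3' to 5' signal of ACT1, a measure of RNA integrity, was 1.37 to 1.92 at 1.5 g/L and 1.86 to 2.36 at 0.75 g/L. That of SPT15 was 3.89 to 4.38 at 1.5 g/L and 4.19 to 5.26 at 0.75 g/L. The part of RNA quality in the differences below was not tested. Nothing in the labels tells whether the arrays of a level stand for 3 cultures or for 3 hybridisations of 1 RNA sample, and their records carry the same sample code. The p-values therefore measure only the spread between these arrays, which may be technical.

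The 1.5 g/L and the 0.75 g/L arrays also passed through different fluidics runs, inferred here from the station and an earlier or later hybridisation time in the array records. The 1.5 g/L arrays shared their run with 1 array at 5 g/L, and the 0.75 g/L arrays theirs with 1 array at 3 g/L. The records of the 3 arrays at 0.75 g/L, and of none at 1.5 g/L, describe a fluidics run that was not completed. No run held both concentrations, so no value within a run exists. A fit with the run as a fixed term links the concentrations only through the 3 and 5 g/L arrays that shared runs, and its median standard error was 0.50 on the log2 scale, against 0.22 without the term. In that fit 269 probe sets were higher and 227 lower. Of the 2306 probe sets that passed without the term, 446 passed in the same direction, 0 in the opposite one, and 2250 kept the sign of their difference. The accounts below say which named genes no longer passed with the run term.

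At 1.5 g/L, 1434 of the 6956 tested probe sets were higher (20.6%) and 872 were lower (12.5%) than at 0.75 g/L, together 33.2% (limma, Benjamini-Hochberg adjusted p under 0.05). At an unadjusted p under 0.05 there were 2953. The fitted difference was at least 2-fold for 681 of the higher and 421 of the lower probe sets. Of the higher probe sets 315 were within background on all arrays at 0.75 g/L. Of the lower ones 83 were so at 1.5 g/L. For these only a bound on the fold exists. The 3 arrays of each concentration did not overlap for 1392 of the higher and 854 of the lower. Over all tested probe sets, called or not, they did not overlap for 28.0% with 1.5 g/L higher and 18.6% with it lower. Counted over the 5219 tested genes with a single symbol, 1214 were higher (23.3%) and 745 lower (14.3%), or 37.5% in all, and these shares are the background for the gene lists below. The median log2 difference over these genes was 0.12. The balance of directions depended on scaling. Calls were 62.2% higher with the signals as deposited, 54.2% higher with quantile normalization and 42.8% higher with median scaling, and the median difference over probe sets was 0.09 as deposited, -0.01 with quantile normalization and -0.11 with median scaling. Of the 2306 calls, 2046 were made in the same direction with quantile normalization and 1870 with median scaling, and 0 in the opposite direction with either.

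**Figure D1:**
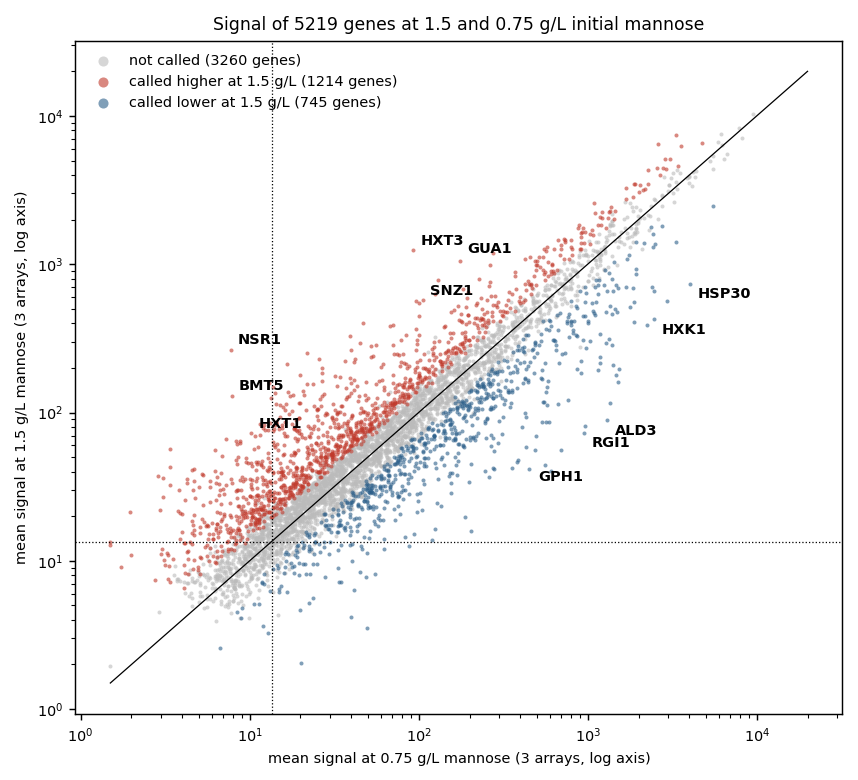
Mean signal of 5219 genes at 1.5 g/L mannose (vertical) against 0.75 g/L (horizontal), both axes logarithmic, means of 3 arrays. Red points (1214) were called higher and blue points (745) lower at 1.5 g/L. The dotted lines mark background, 13.5, and the solid line equal signal. NSR1 and BMT5 lie within background at 0.75 g/L and far above it at 1.5 g/L. ALD3, RGI1 and GPH1 lie on the other side of the line, nearer to it than NSR1.

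PMI40 is the deleted gene, and its difference did not pass the test. All arrays came from the same deletion strain, so PMI40 does not check the mannose labels. Its signals were 252.9, 202.7 and 255.4 at 1.5 g/L, against 270, 270 and 233.3 at 0.75 g/L. The arrays overlapped, and the log2 difference was -0.13 ± 0.19 (SE, adjusted p = 0.655). The signal lay above background in both groups. At 1 g/L PMI40 averaged 159 and was lower than at 0.75 g/L (log2 difference -0.74, adjusted p = 0.00714). The sources used here do not say whether the probe set lies in the deleted part of the gene. These signals therefore do not check the deletion. Of the 7 MATa-specific markers 6 were above background at both concentrations, and ASG7 averaged 5.23 at 1.5 g/L against 22.4 at 0.75 g/L. The a-factor genes averaged 1026 ± 190 (MFA1) and 1598 ± 161 (MFA2) at 1.5 g/L, against 724 ± 125 (MFA1) and 1387 ± 192 (MFA2) at 0.75 g/L (SD, n = 3 each). Of the 5 alpha-specific genes, the alpha-factor gene MF(ALPHA)1 averaged 24.0 at 1.5 g/L against 19.03 at 0.75 g/L, the agglutinin SAG1 13.97 at 1.5 g/L against 16.8 at 0.75 g/L, and AFB1 3.93 at 1.5 g/L against 6.30 at 0.75 g/L. The a-factor receptor STE3 averaged 14.5 at 1.5 g/L against 11.03 at 0.75 g/L, and the other alpha-factor gene, MF(ALPHA)2, 6.87 at 1.5 g/L and 8.20 at 0.75 g/L. The probe set of MFA1 can also read related sequences.

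Many of the largest rises at 1.5 g/L were in genes that build ribosomes. NSR1, a nucleolar protein needed for processing ribosomal RNA, had signals of 290.4, 216.7 and 291.1 at 1.5 g/L, against 8.9, 6.7 and 7.6 at 0.75 g/L. All 3 of the lower signals lay within background, so NSR1 was at least 19.5-fold higher at 1.5 g/L (log2 difference 5.10 ± 0.17, adjusted p = 3.43e-10). BMT5, which methylates the large-subunit ribosomal RNA, had 143.2, 98.4 and 147.1 at 1.5 g/L, against 10.5, 6.2 and 6.8 at 0.75 g/L, at least 9.44-fold higher. ARX1, an export factor of the large subunit, had 47.4, 60.8 and 63.3 at 1.5 g/L against 1.5, 3.6 and 5 at 0.75 g/L, at least 4.20-fold higher. YTM1, which acts in assembly of the large subunit, had 160, 141 and 172.9 at 1.5 g/L, against 13.9, 12.5 and 12.5 at 0.75 g/L, with 2 of the 3 arrays at 0.75 g/L within background. RRP12, needed for export of both subunits, had 155, 141.6 and 147.4 at 1.5 g/L, against 9, 16.1 and 16 at 0.75 g/L (11.2-fold, with 1 of the arrays at 0.75 g/L within background). In each of these genes the lowest array at 1.5 g/L was several times brighter than the highest at 0.75 g/L.

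The 15 largest rises and falls are ranked by the fitted log2 difference, in which signals within background enter as measured or at the floor of 1.5. Where only a bound is given, the true rank is therefore not known. Others of the 15 rises act in ribosome assembly too. DBP2, an RNA helicase, had 285.1, 246.4 and 222.5 at 1.5 g/L, against 21.1, 21.3 and 22.9 at 0.75 g/L (11.5-fold). The large-subunit factors RSA4 and DRS1 and the small-subunit factor FAF1 were within background on all 0.75 g/L arrays, and their bounds were at least 2.65-fold, 2.72-fold and 1.53-fold higher. TOD6, which is known as a repressor of ribosome assembly genes, was also higher, at 33.6, 33.1 and 31.4 at 1.5 g/L against 4.8, 4.3 and 1.1 at 0.75 g/L (at least 2.42-fold). The remaining rises were in nucleotide metabolism, sugar transport and DNA repair. URA7, a CTP synthase, had 209.5, 198.4 and 233.9 at 1.5 g/L, against 19.8, 14.4 and 15.6 at 0.75 g/L (13.0-fold). The adenine deaminase AAH1, the purine enzyme ADE4 and the DNA glycosylase OGG1 were within background at 0.75 g/L and at least 3.16-fold, 2.59-fold and 3.02-fold higher at 1.5 g/L. Of the 15, the differences of RSA4, TOD6 and ADE4 did not pass with the run term.

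**Figure D2:**
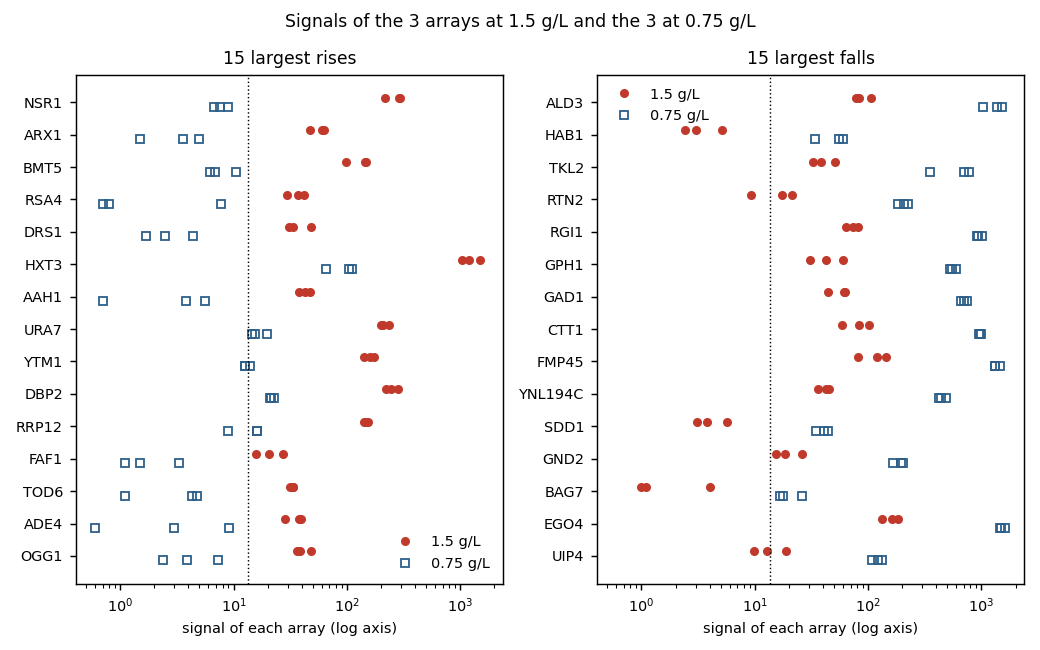
Signal of each array (horizontal, log axis) for the 15 genes with the largest rises (left) and the 15 with the largest falls (right) by fitted log2 difference, among those whose arrays did not overlap. Red circles are the 3 arrays at 1.5 g/L, open blue squares the 3 at 0.75 g/L, and the dotted line is background, 13.5. NSR1 tops the rises, with 216.7 to 291.1 at 1.5 g/L against 6.7 to 8.9 at 0.75 g/L, and ALD3 the falls, with 77.9 to 106.2 at 1.5 g/L against 1034.7 to 1524.5 at 0.75 g/L.

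Ribosome assembly rose nearly throughout the lists. Of 44 large-subunit assembly factors, 44 were higher and 0 lower, with a median log2 difference of 2.42, against 23.3% higher and a median of 0.12 over all genes. Of 42 members of the small-subunit processome, the particle that cuts and folds the precursor of small-subunit ribosomal RNA, 41 were higher and 0 lower, with a median of 2.09. The other member, RRP7, had 17.1, 21 and 30.1 at 1.5 g/L, against 18, 21.4 and 17.5 at 0.75 g/L, and its arrays overlapped (log2 difference 0.23 ± 0.30, adjusted p = 0.604). NOG1, a nucleolar GTPase, had 111.5, 153.4 and 144.2 at 1.5 g/L, against 15.4, 10.1 and 17 at 0.75 g/L (9.77-fold). For NOG1, NOP15 and, below, GCD10, 1 of the 3 arrays at 0.75 g/L was within background. NOP15 was 7.46-fold higher (112 ± 5.75 at 1.5 g/L against 15.1 ± 2.42 at 0.75 g/L, SD, n = 3 each) and RLP24 5.83-fold (115 ± 13.2 at 1.5 g/L against 19.7 ± 1.20 at 0.75 g/L). In the processome, UTP15 rose 4.87-fold to 105 ± 4.57 at 1.5 g/L, against 21.6 ± 2.29 at 0.75 g/L. The helicases DBP8 (5.90-fold) and DHR2 (at least 3.07-fold) and the processome subunit UTP6 (at least 2.23-fold) were higher as well. With the run term 26 of the 44 and 20 of the 42 were still called higher, and 0 lower.

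RNA polymerases I and III transcribe the ribosomal RNAs and tRNAs. Of 32 subunits and factors tested, 25 were higher and 0 lower, with a median log2 difference of 1.49. RPA135, the second-largest subunit of polymerase I, had 242.6, 249.5 and 177.2 at 1.5 g/L, against 37.9, 38.7 and 33 at 0.75 g/L (6.05-fold, adjusted p = 4.64e-08). RPA43 had 95.2, 73.4 and 81 at 1.5 g/L, against 8.4, 10.9 and 15.1 at 0.75 g/L, where 2 of the 3 arrays were within background. RPA12, likewise within background on 2 arrays at 0.75 g/L, was 6.06-fold higher, and RPC19, which both polymerases share, 4.06-fold. With the run term 11 of the 32 were called higher and 0 lower.

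Cytosolic ribosomal protein genes rose by less. Of the 81 tested, 58 were higher and 0 lower, and their median log2 difference was 0.73. RPL36A had 5801.2, 6474.5 and 7009.5 at 1.5 g/L, against 2805.3, 2395 and 2631.4 at 0.75 g/L (2.46-fold). RPS14B averaged 494 ± 49.4 at 1.5 g/L and 162 ± 17.1 at 0.75 g/L (3.04-fold), RPS7B 1082 ± 99.6 at 1.5 g/L and 427 ± 17.0 at 0.75 g/L (2.53-fold) and RPL7B 778 ± 106 at 1.5 g/L and 131 ± 16.6 at 0.75 g/L (5.95-fold) (SD, n = 3 each). Most yeast ribosomal proteins have a near-identical copy, and the probe sets of RPL7B and RPL36A can read the paralog too. Of the 138 genes listed, 81 had a probe set with a single symbol. Median scaling left 39 of the 81 higher, and the run term 16. RPS7B did not pass with the run term. The 75 genes listed as mitochondrial ribosomal proteins did not share this direction, with 0 higher, 8 lower and a median of -0.17. The largest fall of the 8 was that of MRP8 (log2 difference -1.22), whose place in this list was not checked. Those 8 were reduced to 2 without replicate 1 at 0.75 g/L, to 4 without replicate 2 at 0.75 g/L, to 5 without replicate 1 at 1.5 g/L, to 3 without replicate 3 at 1.5 g/L and to 1 with the run term, and median scaling gave 16.

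Most translation factors rose. Of 31 initiation and elongation factors 23 were higher and 1 lower, with a median log2 difference of 0.86. GCD10, which was first isolated as a regulator of initiation and modifies tRNA, had 100.8, 79.3 and 100.9 at 1.5 g/L, against 14.7, 13.4 and 17.3 at 0.75 g/L (6.19-fold). YEF3, a fungal elongation factor, averaged 3260 ± 97.8 at 1.5 g/L and 1676 ± 145 at 0.75 g/L (1.95-fold). GCN3 and TIF34, subunits of initiation factors, were 2.71-fold and 2.15-fold higher. The member that was lower was TIF4632, a scaffold of the cap-binding complex, at 18.1, 12.8 and 15.3 at 1.5 g/L against 24.6, 25.6 and 23.1 at 0.75 g/L (log2 difference -0.68 ± 0.19, adjusted p = 0.012, and 0.056 without replicate 2 at 1.5 g/L). Of 18 tRNA synthetases 10 were higher and 0 lower, with a median of 0.56. MES1 averaged 455 ± 12.7 at 1.5 g/L and 195 ± 19.2 at 0.75 g/L, WRS1 456 ± 34.4 at 1.5 g/L against 196 ± 7.50 at 0.75 g/L, and ALA1 267 ± 7.72 at 1.5 g/L against 120 ± 5.34 at 0.75 g/L. Median scaling left 5 of the 18 higher. Under the run term 4 translation factors and 0 synthetases were higher, and GCN3, TIF34, TIF4632, MES1, WRS1 and ALA1 did not pass.

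**Figure D3:**
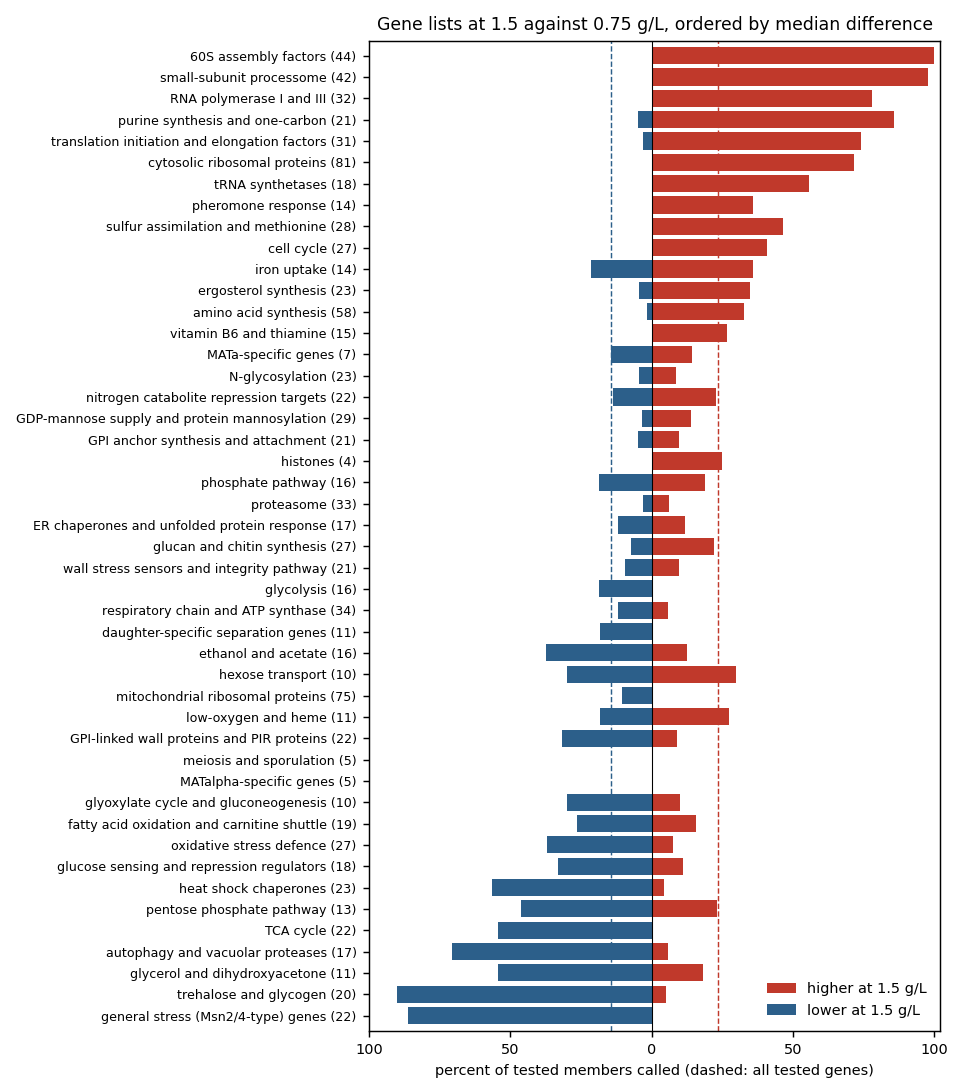
Percent of the tested members of 46 gene lists called higher (red, right) or lower (blue, left) at 1.5 than at 0.75 g/L, with the number tested in brackets and lists ordered by median log2 difference, the highest at the top. Dashed lines mark the shares over all tested genes, 23.3% higher and 14.3% lower. Ribosome assembly, polymerase I and III and purine synthesis stand at the top, and general stress, trehalose and glycogen genes at the bottom.

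Most genes of purine synthesis and the folate-linked supply of its carbon rose. Of 21 tested, 18 were higher and 1 lower, with a median log2 difference of 1.47. SHM2, the cytosolic serine hydroxymethyltransferase, had 537.5, 548.2 and 550.8 at 1.5 g/L, against 112.5, 90.3 and 97 at 0.75 g/L (5.48-fold, adjusted p = 2.88e-08). GUA1, the GMP synthase, had 1029.7, 1250.6 and 897.2 at 1.5 g/L against 206.9, 162.3 and 157.4 at 0.75 g/L (6.02-fold). GCV1, of the glycine cleavage complex, was 5.30-fold higher. The isozymes of the last steps to IMP went opposite ways. ADE17 had 648.5, 699.3 and 699.2 at 1.5 g/L, against 181.2, 183.5 and 183.7 at 0.75 g/L, while ADE16 had 319.4, 283.3 and 309.8 at 1.5 g/L, against 519.8, 507.1 and 558.1 at 0.75 g/L. ADE17 thus rose by 1.90 ± 0.15 and ADE16 fell by 0.80 ± 0.14 on the log2 scale (adjusted p = 3.22e-07 and 0.000656). BAS1, an activator of this pathway, had 17.9, 16.6 and 21.6 at 1.5 g/L against 7.3, 4.9 and 1.4 at 0.75 g/L, at least 1.38-fold higher. Neither ADE12 (670 at 1.5 g/L and 562 at 0.75 g/L) nor IMD2 (621 at 1.5 g/L and 503 at 0.75 g/L) passed. Under the run term 7 of the 21 were higher and 0 lower, and ADE16 and BAS1 did not pass.

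Amino acid and sulfur genes rose in part. Of 28 genes of sulfur assimilation and methionine, 13 were higher and 0 lower, with a median log2 difference of 0.48. MUP1, the high-affinity methionine permease, had 138.3, 134.4 and 73.1 at 1.5 g/L, against 16, 18.8 and 24.5 at 0.75 g/L (5.69-fold), and its weakest array at 1.5 g/L was still above all 3 at 0.75 g/L. SAM1, an S-adenosylmethionine synthetase, averaged 247 ± 24.8 at 1.5 g/L and 74.4 ± 9.84 at 0.75 g/L (3.33-fold). The permeases SUL1 (sulfate) and MMP1 (S-methylmethionine) were within background at 0.75 g/L and at least 1.97-fold and 1.15-fold higher. Of 58 genes of amino acid synthesis 19 were higher and 1 lower, with a median of 0.29. Both enzymes of serine synthesis named by the rule changed, in opposite directions. SER2, the phosphatase of the last step, averaged 84.4 ± 15.7 at 1.5 g/L and 31.6 ± 9.47 at 0.75 g/L (2.73-fold higher), while SER3, a dehydrogenase of the first step, averaged 92.5 ± 16.4 at 1.5 g/L and 254 ± 49.2 at 0.75 g/L (2.74-fold lower). ASN1, an asparagine synthetase, and LEU9, of leucine synthesis, were each 2.03-fold higher. Leaving out replicate 2 at 1.5 g/L left 12 higher and 4 lower, leaving out replicate 3 at 0.75 g/L gave 2 lower, and median scaling gave 10 higher and 4 lower. Adding the run term left 2 sulfur genes and 0 amino acid genes higher, and SUL1, MMP1, SER2, SER3, ASN1 and LEU9 did not pass.

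SNZ1 and SNO1, neighbouring genes of vitamin B6 synthesis, stood out within a list that otherwise moved little. SNZ1 had 614, 592.5 and 512.1 at 1.5 g/L, against 108.4, 99.3 and 111.3 at 0.75 g/L (5.38-fold). SNO1 had 116.7, 141.8 and 143.7 at 1.5 g/L against 25.6, 26 and 30.6 at 0.75 g/L (4.89-fold). The groups of arrays lay far apart in both genes, and both passed with the run term. Of the 15 vitamin B6 and thiamine genes tested, 4 were higher and 0 lower. PHO3, a phosphatase of thiamine uptake, was at least 1.47-fold higher and did not pass with the run term, and BUD16, a pyridoxal kinase, had 27.7, 26.2 and 22.3 at 1.5 g/L against 17.6, 15.8 and 14.9 at 0.75 g/L and passed neither with the run term nor with either rescaling. BUD16 also lost its call when any array other than replicate 3 at 1.5 g/L was left out (adjusted p 0.0606 to 0.116).

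Sugar transporters changed in both directions. HXT3, a low-affinity hexose transporter, had 1496.9, 1028.9 and 1192.7 at 1.5 g/L, against 110.1, 103.6 and 65 at 0.75 g/L. It was 13.5-fold higher at 1.5 g/L (log2 difference 3.76 ± 0.22, adjusted p = 4.38e-08), and no array of one group came near the other. HXT1, another low-affinity transporter, whose gene is induced when glucose is ample, had 81.7, 71.2 and 64.6 at 1.5 g/L against 7.4, 12.5 and 10.8 at 0.75 g/L, at least 5.35-fold higher. HXT2 had 137.8, 206.8 and 149.7 at 1.5 g/L against 44.7, 31.5 and 48.9 at 0.75 g/L (3.96-fold higher). The high-affinity transporters HXT6 and HXT7 went the other way. HXT6 had 685, 600.4 and 693.3 at 1.5 g/L, against 2446.9, 2558.4 and 2399.6 at 0.75 g/L (3.75-fold lower), and HXT7 621, 515.7 and 535 at 1.5 g/L against 1956.7, 1824.6 and 1871.2 at 0.75 g/L (3.39-fold lower). The sequences of HXT6 and HXT7 are nearly identical, so their probe sets cannot be taken as separate measurements. HXT5, a transporter of slow-growing cells, was 1.90-fold lower (20.7 at 1.5 g/L and 39.4 at 0.75 g/L). In all, 3 of 10 tested transporter and sensor genes were higher and 3 lower, or 5 lower with either rescaling. HXT2 did not pass with the run term.

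In sugar phosphorylation, the isozymes known to be repressed by glucose fell. HXK1, a hexokinase, had 527.8, 379.5 and 368.8 at 1.5 g/L, against 2311.4, 2483.8 and 2625.6 at 0.75 g/L (5.89-fold lower, adjusted p = 6.85e-06). GLK1, the glucokinase, averaged 1304 ± 191 at 1.5 g/L and 2424 ± 223 at 0.75 g/L (1.87-fold lower). HXK2, the main hexokinase on glucose, had 939, 890.9 and 811.3 at 1.5 g/L against 826.1, 906 and 858.3 at 0.75 g/L, and its arrays overlapped (log2 difference 0.03 ± 0.15, adjusted p = 0.911). PYK2, the minor pyruvate kinase, had 20.7, 26.1 and 39.4 at 1.5 g/L against 164.6, 145.7 and 156.2 at 0.75 g/L (5.60-fold lower), while CDC19, the major one, averaged 5364 at 1.5 g/L against 5521 at 0.75 g/L and did not pass. These 3 falls were the only calls among 16 glycolysis genes, 0 of which were higher. PGI1, which interconverts glucose 6-phosphate and fructose 6-phosphate, averaged 2160 ± 107 at 1.5 g/L and 2276 ± 215 at 0.75 g/L (adjusted p = 0.779). TDH1, a glyceraldehyde-3-phosphate dehydrogenase, averaged 1262 ± 338 at 1.5 g/L and 2096 ± 227 at 0.75 g/L, just short of the threshold (adjusted p = 0.0501), and passed in 12 of 20 other settings. GLK1 did not pass with the run term.

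Among 18 regulators of glucose sensing and repression 2 were higher and 6 lower. The higher ones were the repressors MIG2, at 47.3, 49.2 and 37.9 at 1.5 g/L against 8.4, 9.4 and 15.3 at 0.75 g/L, where 2 of the 3 arrays were within background, and MIG1, at 38.8, 37.4 and 37.7 at 1.5 g/L against 18.6, 18 and 25.6 at 0.75 g/L (1.85-fold). RGT1, the repressor of hexose transporter genes, averaged 76.7 ± 6.01 at 1.5 g/L and 120 ± 5.29 at 0.75 g/L (1.57-fold lower), and NRG2, another glucose-dependent repressor, 40.9 ± 3.58 at 1.5 g/L and 66.2 ± 0.643 at 0.75 g/L (1.62-fold lower). Leaving out replicate 2 at 0.75 g/L reduced the 6 lower calls to 3, and median scaling gave 10. With the run term MIG2 alone of the 18 passed.

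Mannose use and glycosylation showed few differences. Of 29 genes of GDP-mannose supply and protein mannosylation, 4 were higher and 1 lower, shares of 13.8% and 3.45% against 23.3% and 14.3% over all genes. SEC53, the phosphomannomutase that follows PMI40 in the pathway, had 1025.5, 919.7 and 1031.1 at 1.5 g/L, against 646.8, 606.5 and 583.6 at 0.75 g/L (1.62-fold higher). MNN9 and MNN10, subunits of Golgi mannosyltransferase complexes, averaged 70.5 ± 20.2 at 1.5 g/L and 35.0 ± 3.02 at 0.75 g/L (1.97-fold) and 133 ± 16.4 at 1.5 g/L and 66.1 ± 16.1 at 0.75 g/L (2.05-fold). KTR6, a mannosylphosphate transferase, averaged 150 at 1.5 g/L and 87.5 at 0.75 g/L (1.71-fold), and lost its call without replicate 2 or 3 at 0.75 g/L (adjusted p = 0.063 and 0.0781) and without each array at 1.5 g/L (0.0558 to 0.0717). MNN4, a regulator of mannosylphosphate addition, had 32.7, 34.9 and 35.1 at 1.5 g/L against 75.5, 54.9 and 82 at 0.75 g/L (2.04-fold lower), and the other probe set of MNN4 gave no call. With the run term 0 of the 29 passed in either direction, and the sign of the list's median changed with the scaling. Quantile normalization gave 8 higher and 2 lower, median scaling 3 higher and 4 lower, and leaving out replicate 3 at 1.5 g/L 2 lower.

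N-glycan and GPI anchor genes gave similar counts. Of 23 N-glycosylation genes 2 were higher and 1 lower. OST4, a small subunit of oligosaccharyltransferase, averaged 728 ± 24.4 at 1.5 g/L and 460 ± 52.7 at 0.75 g/L (1.59-fold higher). ALG6, a glucosyltransferase (1.39-fold lower), lost its call when any of the 6 arrays was left out (adjusted p 0.0577 to 0.122). OST5, another oligosaccharyltransferase subunit (1.54-fold higher), lost its call without replicate 2 at 0.75 g/L (adjusted p = 0.171) and without each array at 1.5 g/L (0.0539 to 0.124). Of 21 GPI anchor genes 2 were higher and 1 lower. BST1, which remodels the anchor, averaged 44.3 ± 5.76 at 1.5 g/L and 29.0 ± 6.12 at 0.75 g/L, higher at 1.5 g/L, and lost its call without replicate 3 at 0.75 g/L (adjusted p = 0.0604). The count of higher GPI genes fell to 1 without replicate 1 or 3 of either concentration, and that of lower ones to 0 without replicate 1 or 2 at 0.75 g/L or replicate 1 or 3 at 1.5 g/L. Of 17 genes of the endoplasmic reticulum chaperones and unfolded protein response 2 were higher and 2 lower. SCJ1, a chaperone of the endoplasmic reticulum, averaged 156 ± 26.2 at 1.5 g/L and 77.0 ± 16.0 at 0.75 g/L (2.03-fold higher), while MPD1, a protein disulfide isomerase, averaged 22.9 ± 3.67 at 1.5 g/L and 51.8 ± 6.08 at 0.75 g/L (2.27-fold lower). HRD1, the ubiquitin ligase for misfolded proteins, averaged 28.1 ± 6.17 at 1.5 g/L and 55.0 ± 13.3 at 0.75 g/L (1.95-fold lower). Without replicate 1 at 0.75 g/L or replicate 3 at 1.5 g/L, 1 of these 17 was higher. No member of these 3 lists passed with the run term.

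Wall proteins were lower more often than higher. Of 22 GPI-linked and PIR wall proteins tested, 2 were higher and 7 lower. SPI1, a wall protein of stressed cells, had 323.1, 478.2 and 375.8 at 1.5 g/L, against 2098.1, 2413.2 and 2262.1 at 0.75 g/L (5.82-fold lower). FLO11, the flocculin of invasive growth, had 203.2, 176.7 and 176.3 at 1.5 g/L against 906.3, 1001.4 and 816.5 at 0.75 g/L (4.89-fold lower), and PIR3 82.4, 120.4 and 78.1 at 1.5 g/L against 396.3, 409.1 and 484.6 at 0.75 g/L (4.66-fold lower). UTR2, a transglycosylase that joins chitin to glucan, went the other way, with 233.4, 248.1 and 228.7 at 1.5 g/L against 51.7, 45.5 and 59.5 at 0.75 g/L (4.56-fold higher). These 4 passed with the run term. Without replicate 1 at 0.75 g/L or replicate 2 at 1.5 g/L, and with median scaling, 1 of the 22 was higher. Of 27 genes of glucan and chitin synthesis 6 were higher (22.2%) and 2 lower (7.41%), against 23.3% and 14.3% over all genes. Median scaling gave 2 higher, and 1 was lower without replicate 1 or 3 at 0.75 g/L or replicate 1 at 1.5 g/L. SCW10, a glucanase-like wall protein, averaged 526 ± 23.6 at 1.5 g/L and 171 ± 7.41 at 0.75 g/L (3.07-fold higher), although its other probe set gave no call, and SKN1, of glucan synthesis, 85.4 ± 31.2 at 1.5 g/L and 249 ± 45.7 at 0.75 g/L (3.00-fold lower). Both passed with the run term. GAS1, a glucan-elongating enzyme, averaged 3238 ± 262 at 1.5 g/L and 2189 ± 93.0 at 0.75 g/L (1.48-fold higher) and lost its call with median scaling and with the run term.

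Among 21 wall stress sensors and members of the integrity pathway 2 were higher and 2 lower. ROM1, an exchange factor for RHO1, had 23.8, 21.4 and 17 at 1.5 g/L, against 68.1, 85.2 and 78.4 at 0.75 g/L (3.75-fold lower), and passed with the run term. PRM5 had 21.1, 22.7 and 14 at 1.5 g/L against 5.6, 0.9 and 9.1 at 0.75 g/L (at least 1.40-fold higher), and the sensor MTL1 9.8, 11.1 and 6.8 at 1.5 g/L against 17.9, 19.5 and 17.3 at 0.75 g/L (at least 1.35-fold lower). Neither passed with the run term. The sensor WSC2 averaged 150 ± 13.8 at 1.5 g/L and 110 ± 7.09 at 0.75 g/L (adjusted p = 0.0464). Its call was lost when any of the 6 arrays was left out (adjusted p 0.0584 to 0.144), and its difference changed sign with the run term.

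Reserve carbohydrate genes fell nearly throughout. Of 20 genes of trehalose and glycogen, 1 was higher and 18 lower, with a median log2 difference of -1.76. GPH1, glycogen phosphorylase, had 30.8, 59.8 and 42.6 at 1.5 g/L, against 595.3, 552.9 and 530.3 at 0.75 g/L (13.1-fold lower, adjusted p = 6.14e-08). GSY2, the main glycogen synthase, had 225.1, 243.1 and 182.4 at 1.5 g/L against 1234.9, 1053.6 and 1253.6 at 0.75 g/L (5.47-fold lower). Both the synthesis and the breakdown of glycogen were thus represented among the falls, and no array of the groups overlapped. PGM2, the major phosphoglucomutase, had 124.1, 272.5 and 193 at 1.5 g/L against 1234.6, 1510.8 and 1823.8 at 0.75 g/L (8.05-fold lower), whereas PGM1, the minor form, was the member that was higher, at 101.6, 138.2 and 112.2 at 1.5 g/L against 83.3, 64.2 and 82.7 at 0.75 g/L (1.53-fold). In trehalose synthesis, TPS1 averaged 463 at 1.5 g/L and 1403 at 0.75 g/L (3.01-fold lower), TPS2 209 at 1.5 g/L and 1404 at 0.75 g/L (7.17-fold lower) and TSL1 703 ± 77.6 at 1.5 g/L against 2407 ± 144 at 0.75 g/L (3.43-fold lower). PIG2, a targeting subunit for the glycogen synthase phosphatase, was 4.58-fold lower, and PIG1 (17.3 at 1.5 g/L and 16.3 at 0.75 g/L) did not pass. With the run term 12 of the 20 were lower and 0 higher, and PGM1 did not pass, nor did it without replicate 2 at 0.75 g/L (adjusted p = 0.0568) or at 1.5 g/L (0.0525).

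General stress genes, listed as known targets of the transcription factors MSN2 and MSN4 together with these factors, were mostly lower. Of 22 tested, 0 were higher and 19 lower, with a median log2 difference of -2.11. RGI1, a gene of energy metabolism under respiratory growth, had 81, 63.7 and 74 at 1.5 g/L, against 1008.3, 915.9 and 928.5 at 0.75 g/L (13.1-fold lower). GAD1, glutamate decarboxylase, had 60.8, 62.6 and 43.9 at 1.5 g/L against 694.8, 656.9 and 740.8 at 0.75 g/L (12.6-fold lower). RTN2, a reticulon of the endoplasmic reticulum, had 21.2, 17.5 and 9.3 at 1.5 g/L against 181.7, 225.1 and 206.9 at 0.75 g/L (13.5-fold lower, with 1 of the arrays at 1.5 g/L within background). PAI3, the proteinase A inhibitor, averaged 67.1 ± 5.20 at 1.5 g/L and 275 ± 18.4 at 0.75 g/L (4.10-fold lower). The 3 members that did not pass were MSN2 (139 at 1.5 g/L and 170 at 0.75 g/L), MSN4 (40.5 at 1.5 g/L against 40.3 at 0.75 g/L) and DDR48 (3853 at 1.5 g/L and 4317 at 0.75 g/L). Leaving out any of the 6 arrays left the count at 19, and the run term left 15.

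Of the other genes among the 15 largest falls, ALD3 and CTT1 were in lists of stress genes, and 7 were in no list. ALD3, an aldehyde dehydrogenase of the general stress list, had 82.3, 77.9 and 106.2 at 1.5 g/L, against 1358.6, 1034.7 and 1524.5 at 0.75 g/L (14.7-fold lower, adjusted p = 2.98e-08). CTT1, the cytosolic catalase, of the oxidative stress list, had 101, 83.3 and 58.4 at 1.5 g/L against 953.6, 962 and 991.9 at 0.75 g/L (12.3-fold lower). FMP45, of the eisosome-associated membrane domain, and its relative YNL194C were 12.1-fold and 10.9-fold lower, at 115 ± 32.4 at 1.5 g/L and 1360 ± 90.5 at 0.75 g/L for FMP45 and 41.5 ± 4.74 at 1.5 g/L and 449 ± 31.1 at 0.75 g/L for YNL194C. EGO4 had 163.7, 132.8 and 184.1 at 1.5 g/L against 1450.9, 1488.6 and 1612 at 0.75 g/L (9.55-fold lower), and UIP4 9.9, 18.7 and 12.9 at 1.5 g/L against 131.7, 122.3 and 107.9 at 0.75 g/L (8.99-fold lower, with 2 of the arrays at 1.5 g/L within background). HAB1, SDD1 and BAG7, the last a GTPase-activating protein of RHO1, were within background on all 1.5 g/L arrays, at least 3.58-fold, 2.92-fold and 1.47-fold lower. HAB1 and BAG7 did not pass with the run term.

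In the pentose phosphate pathway the falls included the minor isozymes. TKL2, the minor transketolase, had 38.7, 50.9 and 32.3 at 1.5 g/L, against 694.9, 778.4 and 354.2 at 0.75 g/L (14.4-fold lower, adjusted p = 2.37e-07). Its spread at 0.75 g/L was wide, and even the lowest of those arrays was above all 3 at 1.5 g/L. NQM1, the minor transaldolase, had 17.9, 15.2 and 16.3 at 1.5 g/L against 122.2, 148.3 and 102.4 at 0.75 g/L (7.48-fold lower), GND2, the minor 6-phosphogluconate dehydrogenase, 26.1, 15.3 and 18.3 at 1.5 g/L against 167.1, 194 and 204.6 at 0.75 g/L (9.68-fold lower), and SOL4, a 6-phosphogluconolactonase, 544.1, 558.3 and 605.3 at 1.5 g/L against 2800.6, 2937.6 and 3138.9 at 0.75 g/L (5.20-fold lower). RKI1, the ribose-5-phosphate isomerase, was higher, at 24.9, 35.1 and 34.8 at 1.5 g/L against 7.6, 5.2 and 2.2 at 0.75 g/L (at least 2.31-fold). Of the 13 genes 3 were higher and 6 lower, and leaving out replicate 3 at 0.75 g/L, or median scaling, left 1 higher. GND2 and RKI1 did not pass with the run term.

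Genes of glycerol metabolism were lower more often than higher. Of 11 genes of glycerol and dihydroxyacetone 2 were higher and 6 lower, with a median log2 difference of -0.9995. GCY1, a glycerol dehydrogenase, had 172.1, 219.6 and 191.8 at 1.5 g/L, against 1117.7, 1139.8 and 1174.9 at 0.75 g/L (5.91-fold lower). The dihydroxyacetone kinase DAK1 was 2.18-fold lower, the mitochondrial glycerol-3-phosphate dehydrogenase GUT2 2.71-fold and the cytosolic one, GPD1, 2.06-fold. Of 16 ethanol and acetate genes 2 were higher and 6 lower. The acetyl-CoA hydrolase ACH1 averaged 339 ± 35.7 at 1.5 g/L and 1177 ± 105 at 0.75 g/L (3.48-fold lower) and the mitochondrial aldehyde dehydrogenase ALD4 305 ± 52.6 at 1.5 g/L against 1029 ± 35.4 at 0.75 g/L (3.40-fold lower). PDC5, a pyruvate decarboxylase, was higher, at 100 ± 9.84 at 1.5 g/L and 46.9 ± 3.62 at 0.75 g/L (2.13-fold). The 2 higher glycerol genes became 1 when any array other than replicate 1 at 0.75 g/L was left out, and the 2 higher ethanol and acetate genes 1 without replicate 3 at 0.75 g/L. GPD1 and PDC5 did not pass with the run term.

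In mitochondrial metabolism most differences were smaller. Of 22 genes of the TCA cycle 0 were higher and 12 lower, with a median log2 difference of -0.52. KGD2, of the 2-oxoglutarate dehydrogenase complex, averaged 206 ± 13.7 at 1.5 g/L and 371 ± 58.5 at 0.75 g/L (1.79-fold lower), and FUM1, fumarase, 559 ± 111 at 1.5 g/L against 1126 ± 193 at 0.75 g/L (2.03-fold lower). MDH1 and SDH1 were 1.56-fold and 1.67-fold lower. The run term left KGD2 alone of the 12. Among 34 genes of the respiratory chain and ATP synthase 2 were higher and 4 lower. CYC7, the cytochrome c isoform of low oxygen, had 52.2, 46.3 and 41.4 at 1.5 g/L, against 397.6, 425.6 and 317.7 at 0.75 g/L (8.13-fold lower). NDE2, an external NADH dehydrogenase, was 3.23-fold lower, NDI1, the internal one, 1.75-fold, and COX5B, the low-oxygen isoform of a cytochrome oxidase subunit, 1.72-fold. NDI1 and COX5B did not pass with the run term. The 2 higher genes of this list became 1 without replicate 2 at 0.75 g/L or replicate 2 or 3 at 1.5 g/L and 0 without replicate 3 at 0.75 g/L, and median scaling gave 0 higher and 8 lower. Of 10 genes of the glyoxylate cycle and gluconeogenesis 1 was higher and 3 lower, with MDH2, the cytosolic malate dehydrogenase, 1.89-fold lower. Either rescaling gave 6 lower, 0 were higher without replicate 3 at 0.75 g/L or replicate 1 or 3 at 1.5 g/L, and 0 passed with the run term. Of 19 genes of fatty acid oxidation and the carnitine shuttle 3 were higher and 5 lower. CAT2, a carnitine acetyltransferase, averaged 33.0 ± 4.75 at 1.5 g/L and 107 ± 5.82 at 0.75 g/L (3.27-fold lower). The fatty acyl-CoA synthetases differed in direction, with FAA1 2.20-fold lower and FAA4 1.93-fold higher, and neither passed with the run term. The 5 became 3 without replicate 1 or 3 at 0.75 g/L or replicate 3 at 1.5 g/L, and 9 with median scaling.

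Chaperones and antioxidant enzymes were lower at 1.5 g/L in part. Of 23 heat shock chaperones 1 was higher and 13 lower, with a median log2 difference of -0.45. HSP30, a membrane protein induced by stress, had 768.9, 700.6 and 743.7 at 1.5 g/L, against 3927.7, 4086 and 4070.6 at 0.75 g/L (5.46-fold lower, adjusted p = 5.04e-08). HSP42, a small chaperone, was 5.12-fold lower, SSA4, the stress-induced Hsp70, 4.30-fold, and SSE2, an exchange factor of Hsp70, 3.02-fold. Of 27 oxidative stress genes 2 were higher and 10 lower, with a median of -0.42. GPX1, a glutathione peroxidase, averaged 47.7 ± 7.89 at 1.5 g/L and 389 ± 16.9 at 0.75 g/L (8.22-fold lower), OYE3, an NADPH oxidoreductase, 58.8 ± 12.2 at 1.5 g/L and 430 ± 37.5 at 0.75 g/L (7.41-fold lower), and SOD2, the mitochondrial superoxide dismutase, 412 ± 67.0 at 1.5 g/L against 1003 ± 45.1 at 0.75 g/L (2.46-fold lower). In the fit with the run term 6 chaperones and 7 oxidative stress genes were lower and 0 higher. Leaving out replicate 3 at 1.5 g/L gave 0 higher chaperones, as did median scaling.

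Genes of vacuolar proteolysis were mostly lower. Of 17 genes of autophagy and vacuolar proteolysis 1 was higher and 12 lower, with a median log2 difference of -0.64. PRC1, carboxypeptidase Y, had 646, 640.2 and 784.1 at 1.5 g/L, against 1861.9, 1754.1 and 1928.8 at 0.75 g/L (2.69-fold lower), and the aminopeptidases APE1 and APE3 were 2.70-fold and 2.19-fold lower. ATG5, of the autophagy conjugation machinery, was the member that was higher, at 36, 30.6 and 41 at 1.5 g/L against 14.3, 15.4 and 15.3 at 0.75 g/L (2.38-fold). APE1, APE3 and ATG5 did not pass with the run term, and 3 of the 17 did. Of 33 proteasome genes 2 were higher and 1 lower, with a median of 0.04, and with the run term 0 passed. The higher 2 became 1 without replicate 2 at 0.75 g/L or replicate 1 or 2 at 1.5 g/L and 0 without replicate 3 of either, and the lower 1 became 0 when any array other than replicate 3 at 1.5 g/L was left out.

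Part of the cell cycle list was higher. Of 27 tested, 11 were higher and 0 lower, with a median log2 difference of 0.37. RNR1, the large subunit of ribonucleotide reductase, had 347.7, 347.5 and 298.5 at 1.5 g/L, against 119, 95.1 and 86.6 at 0.75 g/L (3.33-fold). PCL1, a cyclin of the G1 phase, averaged 54.3 ± 5.12 at 1.5 g/L and 18.4 ± 2.40 at 0.75 g/L (2.95-fold), FAR1, an inhibitor of G1 cyclins, 90.9 ± 6.08 at 1.5 g/L and 32.3 ± 5.68 at 0.75 g/L (2.84-fold), and POL1, a DNA polymerase subunit, 82.3 ± 8.90 at 1.5 g/L and 37.9 ± 6.61 at 0.75 g/L (2.18-fold). None of the 27 passed with the run term. Of 4 histone genes 1 was higher, and 0 without replicate 1 or 2 of either concentration. Of 11 daughter-specific genes of cell separation 0 were higher and 2 lower. CTS1, the chitinase among them, had 1392.6, 1417.4 and 1426.4 at 1.5 g/L, against 2033.2, 1630.5 and 2152.2 at 0.75 g/L (adjusted p = 0.0198), and lost its call without replicate 1 or 3 at 0.75 g/L (adjusted p = 0.075 and 0.0871) or replicate 1 at 1.5 g/L (0.0509). Without replicate 1 or 3 at 0.75 g/L 0 of the 11 were lower, and 1 was when any array at 1.5 g/L was left out. Of 14 pheromone response genes 5 were higher and 0 lower. Among the 5, FUS1 lay within background on all arrays of both concentrations. PRM1 and PRM4 were within background at 0.75 g/L and at least 1.32-fold and 1.18-fold higher at 1.5 g/L. The smallest adjusted p was that of the agglutinin subunit AGA1, at 80.1 ± 14.3 at 1.5 g/L and 30.0 ± 3.90 at 0.75 g/L (2.66-fold), and none of the 14 passed with the run term, nor did any of the 11 daughter-specific genes.

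Between the compared concentrations the study had arrays at 1 g/L, run in a fluidics run of their own. The differences of 1.5 and of 1 g/L from neighbouring levels share arrays with each other and with the main comparison, so they are given side by side only. Between 1.5 and 1 g/L 28 probe sets differed (0.403%), 27 of them higher (0.388%) and 1 lower (0.0144%) at 1.5 g/L. Over genes with a single symbol these were 23 (0.441%), 22 of them higher (0.422%) and 1 lower (0.0192%). Between 1 and 0.75 g/L 2597 probe sets differed (37.3%), 1536 of them higher (22.1%) and 1061 lower (15.3%) at 1 g/L, and over genes 2082 (39.9%). The median log2 difference of large-subunit assembly factors was 0.07 for 1.5 minus 1 g/L and 2.28 for 1 minus 0.75 g/L. For the processome the medians of these steps were 0.01 (upper) and 2.12 (lower), for general stress genes -0.08 (upper) and -2.36 (lower), and for trehalose and glycogen -0.36 (upper) and -1.35 (lower). NSR1 averaged 7.73 at 0.75 g/L, 231 at 1 g/L and 266 at 1.5 g/L. RGI1 averaged 951, 118 and 72.9 in the same order, and TKL2 609, 32.0 and 40.6.

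A few genes differed within the upper step. SNZ1 averaged 106 at 0.75 g/L, 104 at 1 g/L and 573 at 1.5 g/L, a log2 difference of -0.04 (adjusted p = 0.856) for 1 minus 0.75 g/L and of 2.46 (adjusted p = 4.1e-07) for 1.5 minus 1 g/L. SNO1 averaged 27.4, 23.1 and 134. HXT1 passed in both steps, with 10.2, 20.9 and 72.5. PUT4, a proline permease, was the gene lower at 1.5 than at 1 g/L, with 276, 231 and 108 (log2 difference -1.11 for 1.5 minus 1 g/L, adjusted p = 0.0349). In contrast HXK1, at 2474, 822 and 425, did not pass between 1.5 and 1 g/L (adjusted p = 0.176). Across the other levels of the study, HXT3 stayed near 1259 and 1299 at 3 and 5 g/L, while ALD3 averaged 93.8 at 3 g/L and 410 at 5 g/L.

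**Figure D4:**
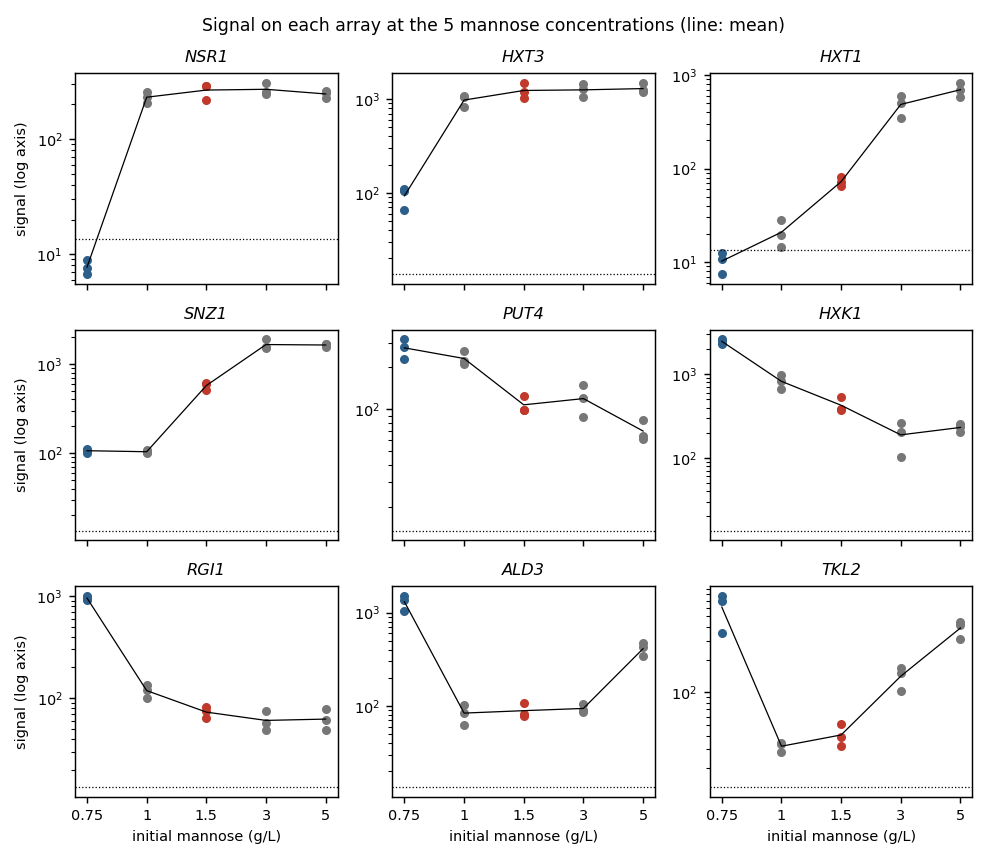
Signal on each array (vertical, log axis) against initial mannose, 0.75 to 5 g/L, for 9 genes, with blue points at 0.75 g/L, red at 1.5 g/L, grey at the other levels, a line through the means and background dotted at 13.5. Up to 1.5 g/L, the means of NSR1, HXT3, RGI1, ALD3 and TKL2 differed more between 0.75 and 1 g/L than between 1 and 1.5 g/L. Above that, TKL2 averaged 141 at 3 g/L and 391.5 at 5 g/L. ALD3 averaged 410 at 5 g/L. SNZ1 and PUT4 differed between 1 and 1.5 g/L, with means of 104 and 573 for SNZ1 and 231 and 108 for PUT4.

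A fit that includes the fluidics run bears on all of these values, because each concentration compared lay in its own run. Of 204 genes named by rule, 183 were called, 91 of them passed with the run term in the same direction, 91 did not pass and kept their direction, and WSC2 changed sign. Values for 4 of the largest differences follow. In that fit the log2 difference of NSR1 was 4.80 (adjusted p = 0.000522), that of HXT3 3.11 (0.00544), that of RGI1 -3.63 (0.00112) and that of ALD3 -3.95 (0.00172). The linking array at 3 g/L had its own uncompleted fluidics record, and the part of the runs in these differences was not tested further.

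**Figure D5:**
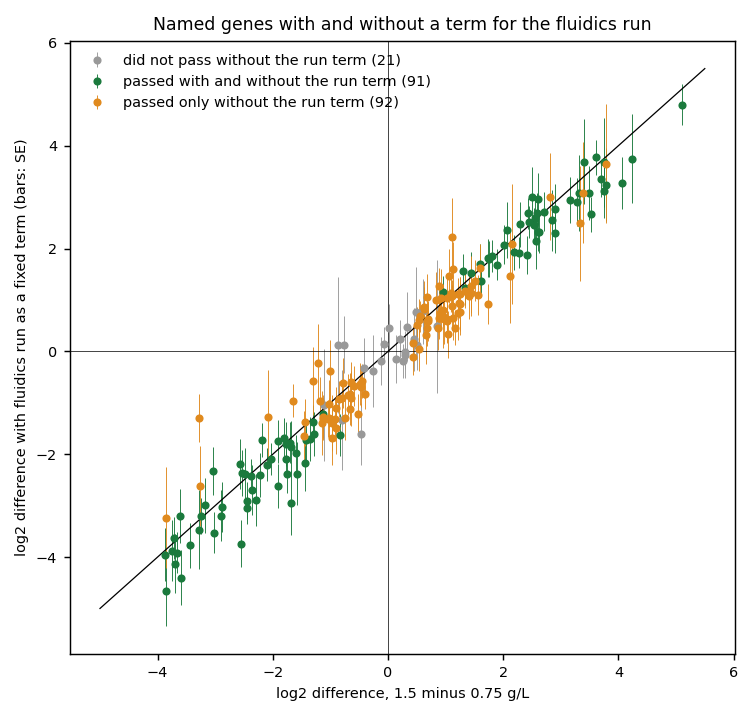
Log2 difference, 1.5 minus 0.75 g/L, of the named genes without (horizontal) and with (vertical) a fixed term for the fluidics run, with standard errors of the fit with the term as bars and the line of equality. Green points (91) passed in both fits, orange points (92) only without the run term, and grey points (21) did not pass without it. Most points lie near the line, and some lie well off it, such as GND2 (-3.28 without and -1.30 with the term), HXK1 (-2.56 and -3.74) and SPT14 (1.10 and 2.23).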

How the data were processed

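Total RNA was measured on 15 Affymetrix YG_S98 arrays, 3 for each of 5 mannose levels, grouped by their titles. The deposited signal intensity values are linear, 1 per probe set and array. The 2% trimmed mean of each array was about 100, so the values look scaled to it. The sources used here do not say how signals were computed.

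Here, signals under 1.5, the 10th percentile, were set to 1.5 and taken as log2. The 60 control probe sets were left out, as were probe sets whose mean log2 signal lay under the 25th percentile, which left 6956 of 9335 for testing. The platform annotation gave 1 symbol to 6504 probe sets, several to 328 and none to 2443 others, and genes were named only from probe sets with 1 symbol. A gene with several probe sets and disagreeing calls is described as such. All 15 arrays entered a single fit in limma 3.58.1 (R 4.3.3), with a mean per mannose level and no covariate. The contrast was 1.5 minus 0.75 g/L, and p-values were Benjamini-Hochberg adjusted over all tested probe sets, with a threshold of 0.05. A fold is 2 to the power of the log2 difference, and its error is the standard error of the fit. Where all arrays of the dimmer group lay within background, the fold is "at least", computed against 13.5. The number of arrays limits the precision.

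The comparison, the gene lists and the genes were chosen with earlier results of these data known. Named genes were PMI40 and PGI1, the 15 largest rises and 15 largest falls among called genes whose arrays did not overlap and whose higher mean exceeded background, and up to 4 members of each list with the smallest adjusted p. Other genes, named to complete small counts or singled out, were chosen after their values were seen.

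Equal replicate numbers were not treated as pairs. Deviations of same-numbered arrays at 1.5 and 0.75 g/L correlated at 0.0415, 0.0797 and 0.0211 across probe sets. Those of differently numbered arrays correlated at -0.081 to 0.0382. With 3 arrays per level, these values cannot decide whether equal numbers mark pairs. Fluidics runs were inferred from the array records. In simulated data for 1.5 minus 0.75 g/L with 6956 probe sets, the fit recovered 11 of 67 changes of 1.5-fold. It recovered 40 of 67 of 2-fold and 60 of 66 of 4-fold, and 8 of 119 calls were false (6.72%). The simulation changed far fewer probe sets than were called in the data, with independent noise and no run effect. Its rates therefore do not carry over to the measured comparison. Another 20 settings were run, among them both rescalings, other floors and filters, single arrays left out and the fluidics run as a term. Of these, leaving out the other arrays with uncompleted fluidics records and fitting only the arrays at 0.75, 1 and 1.5 g/L were chosen after seeing the data.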

Additional observations from a re-analysis of the deposited data

How the results depend on the processing

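The counts of 1434 higher and 872 lower probe sets kept within 1.5 times of these values in all settings except 2. Median scaling gave 1335 lower, with 998 higher, and the fluidics run as a fixed term gave 269 higher and 227 lower. The run as a random block gave 1460 higher and 887 lower. Leaving out single arrays gave 1192 to 1290 higher and 699 to 799 lower. The replicate number as a block, which the labels do not call a pairing, gave 1371 higher and 845 lower. Only the 6 arrays compared gave 1307 higher and 861 lower. Of the settings added after seeing the data, leaving out the other 2 arrays with uncompleted fluidics records gave 1480 higher and 918 lower, and fitting the 9 arrays at 0.75, 1 and 1.5 g/L gave 1345 higher and 830 lower. Of the 183 called genes named by rule, 161 passed in every setting that tested them, the run term aside. With the run term included, 91 passed in all of the 20 settings that tested them. Filters on low signal left some dim genes untested, and such genes were not counted as failing there. WSC2 reversed with the run term, at -0.11 (adjusted p = 0.897) against 0.44 (adjusted p = 0.0464) without it, and the cause was not tested. Signals within background allow only bounds on a fold.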

Other observations

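Several smaller groups of genes also held large differences. Of 23 genes of ergosterol synthesis 8 were higher and 1 lower at 1.5 g/L, with a median log2 difference of 0.31, against 23.3% higher and 14.3% lower over all genes. ERG3, the sterol C-5 desaturase, averaged 799 ± 47.7 at 1.5 g/L and 228.5 ± 24.1 at 0.75 g/L (SD, n = 3 each), 3.51-fold higher. HMG2, the minor HMG-CoA reductase, averaged 91.8 ± 18.4 at 1.5 g/L and 223 ± 29.8 at 0.75 g/L, 2.45-fold lower. Both passed with the run term, as 1 higher and 1 lower gene of the list. ERG25 and MVD1, 2.17-fold and 1.87-fold higher, did not. Of 14 genes of iron uptake 5 were higher and 3 lower. FET3, the multicopper oxidase of high-affinity iron uptake, averaged 124 ± 11.97 at 1.5 g/L and 36.9 ± 4.15 at 0.75 g/L (3.36-fold higher), and FTR1, the permease it works with, was 2.71-fold higher, and both passed with the run term. FRE1, a reductase (at least 1.54-fold higher), and CTR1, a copper transporter (2.20-fold lower), did not.

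Among 22 targets of nitrogen catabolite repression 5 were higher (22.7%) and 3 lower (13.6%), close to the 23.3% and 14.3% over all genes. The higher count became 3 without replicate 2 or 3 at 0.75 g/L, without replicate 1 at 1.5 g/L, and with median scaling. PUT4, a proline permease, was 2.55-fold lower and passed with the run term, while UGA1, a transaminase of GABA use (3.12-fold lower), did not. Of 16 phosphate pathway genes 3 were higher and 3 lower (18.75% each), against 23.3% higher and 14.3% lower over all genes. The lower count became 1 without replicate 2 at 0.75 g/L or replicate 1 at 1.5 g/L. PHM8 averaged 22.5 at 1.5 g/L and 71.6 at 0.75 g/L (3.20-fold lower) and passed with the run term, and PHO4, the activator of the pathway (1.82-fold higher), did not. Of 11 low-oxygen and heme genes 3 were higher (27.3%) and 2 lower (18.2%), against 23.3% and 14.3% over all genes. SUT1, 1 of the higher genes, lay within background on all arrays of both concentrations. CYB5, cytochrome b5, averaged 212 ± 13.3 at 1.5 g/L and 83.9 ± 7.18 at 0.75 g/L (2.53-fold higher) and passed with the run term. Of the mating type lists, 1 of 7 MATa-specific genes was higher and 1 lower, and 0 of 5 MATalpha-specific genes passed. Of 15 genes of meiosis and sporulation 5 were bright enough to test and 0 passed.

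GPG1 and SPG4 were lower at 1 g/L than at the levels on either side. GPG1 averaged 428 at 0.75 g/L, 86.3 at 1 g/L and 167 at 1.5 g/L. SPG4, a gene needed in stationary phase, averaged 55.1 at 0.75 g/L, 7.17 at 1 g/L and 17.7 at 1.5 g/L. Its 3 arrays at 1 g/L were all within background. GPG1 and SPG4 passed in each step. So did other genes with a dip at 1 g/L, such as TMT1, with 203, 71.8 and 139 in the same order. NCA3 averaged 34.7 at 0.75 g/L, 29.9 at 1 g/L and 110 at 1.5 g/L. It passed between 1.5 and 1 g/L (log2 difference 1.90, adjusted p = 0.000667) and not between 1 and 0.75 g/L (adjusted p = 0.39). The permease gene BAP3 also passed between 1.5 and 1 g/L, with an average of 52.3 at 1.5 g/L, against 17.1 at 1 g/L, and not between 1 and 0.75 g/L (adjusted p = 0.101). In 1.5 minus 0.75 g/L, SPG4 passed with the run term (adjusted p = 0.0113), and GPG1, TMT1, NCA3 and BAP3 did not (0.0816, 0.439, 0.0928 and 0.754). These genes were chosen after their values were seen.

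Neighbouring genes were sometimes called together. Of 4487 pairs of adjacent tested genes, by the gene order of the RefSeq table, 306 were both higher (6.82%), 120 both lower (2.67%) and 268 called in opposite directions (5.97%). Over all tested genes, taken singly, 23.3% were higher and 14.3% lower. There were 14 runs of 4 or more adjacent higher genes and 4 of lower genes. The longest, on chromosome XIV, held LYS9, BRE5, POP2, NOG2 and ESF2, with log2 differences of 0.89, 0.67, 0.40, 3.17 and 1.99 in that order along the chromosome. Of these NOG2 and ESF2 passed with the run term and the other 3 did not, and POP2 was close to the threshold (adjusted p = 0.0475). Another run on that chromosome held RPC19, DBP2, CYB5 and NOP15, and a run on chromosome XIII held UTP15, CTF13, SNO1 and SNZ1, of which CTF13 lay within background on all 6 arrays and did not pass with the run term. No test was made of whether such pairs or runs are more common than their genes' separate calls would give.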
